A study of Mus musculus with 12 samples.

Results

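The nuclear genes of mitochondrial complex I (NADH dehydrogenase) were followed through 12 RNA-seq libraries of FLMycER cells. They were chosen by name and level: every gene whose symbol starts with Nduf and that reached an RPKM (reads per kilobase of gene, scaled to the size of the library) of at least 1 in at least 3 libraries. Of 45 Nduf genes listed, 44 passed, among 9745 genes tested and 21671 listed in all. Only Ndufa4l2, a paralog of Ndufa4, did not pass: it held 3 to 15 reads and an RPKM of 0.264 to 1.09 per library, and it is not counted below.

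FLMycER is the IL-3-dependent, BALB/c-derived mouse line FL5.12, described in the labels as prolymphocytic, into which the MycER fusion was introduced with a retroviral vector. The drug-selected cells were used as a pool, and MycER was present in all 12 libraries, so no library is without it. The tamoxifen metabolite 4-hydroxytamoxifen (OHT) activates the fusion. Each of the 4 conditions had 3 libraries, called biological replicates in the study's methods: untreated (nonprimed, no drug), OHT (100 nM, with 48 h of priming before a last 24 h of growth), IACS (nonprimed, with 135 nM of the complex I inhibitor IACS-010759 for the last 24 h) and OHT_IACS (OHT-primed, with the same inhibitor). The study's methods state that cells were passaged in low-glucose medium before experiments with the inhibitor. Of 11 markers fixed for B-lineage progenitors, 4 had a mean RPKM of at least 1, led by the IL-3 receptor chain gene Csf2rb at 39.8 to 48.5. The defining B-lineage genes Pax5, Rag1 and Il7r were at 0 in every library, whereas Mpo, a myeloid granule enzyme, stood at 8.65 to 13.7 and Klf1, an erythroid factor, at 4.92 to 13.7. The summed myeloid markers were at 14.9 to 16.3 RPKM in the untreated libraries and at 10.2 to 12.5 with OHT, 12.7 to 15.4 with IACS and 9.77 to 10.5 with both. The summed erythroid markers were at 13.8 to 14.6 in untreated cells, 10.3 to 11.9 with OHT, 7.81 to 8.90 with IACS and 6.85 to 7.48 with both, with no overlap between conditions. The summed B-lineage markers were at 51.7 to 55.1, 53.4 to 56.3, 52.2 to 54.2 and 59.0 to 61.1 in the same order. Summed T cell markers were low, at 2.15 to 2.56, 1.23 to 1.399, 2.46 to 2.53 and 1.86 to 1.98, and the fibroblast markers Col1a1, Col1a2 and Col3a1 summed to at most 0.343. The part of these markers in the results below was not tested, and in such bulk RNA fewer cells of a type and less RNA per cell cannot be told apart.

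Complex I takes electrons from NADH, passes them along a flavin and a chain of iron-sulfur clusters to ubiquinone, and pumps protons across the inner mitochondrial membrane. Its core subunits do the chemistry and the pumping. Accessory subunits surround the matrix arm and the membrane arm, and assembly factors build the complex without remaining in it. The core subunits of the membrane arm are encoded by mitochondrial DNA and were not analysed here. MYC is known to raise many nuclear genes of mitochondria, often through the E-box CACGTG, and NRF1 is a known regulator of respiratory chain genes.

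Promoter windows from RefSeq (build GRCm38.p6, 250 bases before to 50 bases after the start of the transcript) were at hand for 39 of the 44 genes. The E-box CACGTG was found in 2 of 39 (5.13%), against 12.5% of the 7366 tested genes with a window. The palindromic NRF1 consensus, in capitals in the Ndufaf4 window, was found in 3 of 39 (7.69%, Ndufa11, Ndufaf4 and Ndufaf5), against 2.77%. The ETS motif CCGGAAG was found in 5 of 39 (12.8%), against 23.6%. Both strands were searched for the exact letters, the motifs do not overlap each other, and a match is a description of the letters, not a binding site. The windows of 5 genes are printed on the strand of the gene, with matches in capitals: the pair with an E-box, by a rule on the motif, and 3 genes that carry the changes described below, chosen after their values were seen. Ndufa7 is at chr17:33824322-33824621 (plus strand), with its E-box 72 bases before the start. Ndufv1 is at chr19:4012706-4013005 (minus strand), with its E-box 169 bases before the start. Ndufaf1 is at chr2:119662785-119663084 (minus strand), with an ETS motif 18 bases before the start. Ndufaf4 is at chr4:24897833-24898132 (plus strand), with an NRF1 motif 113 bases before the start. Ndufv3 is at chr17:31519865-31520164 (plus strand) and held none of the 3 motifs in this window. All 5 windows cover the upstream flank and the first 50 transcribed bases of the named gene.
Ndufa7: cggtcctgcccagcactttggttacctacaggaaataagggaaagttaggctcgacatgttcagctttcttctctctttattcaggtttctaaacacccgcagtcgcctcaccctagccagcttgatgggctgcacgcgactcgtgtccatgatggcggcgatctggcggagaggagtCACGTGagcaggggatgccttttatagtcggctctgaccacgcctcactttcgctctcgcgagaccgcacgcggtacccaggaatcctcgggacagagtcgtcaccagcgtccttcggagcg
Ndufv1: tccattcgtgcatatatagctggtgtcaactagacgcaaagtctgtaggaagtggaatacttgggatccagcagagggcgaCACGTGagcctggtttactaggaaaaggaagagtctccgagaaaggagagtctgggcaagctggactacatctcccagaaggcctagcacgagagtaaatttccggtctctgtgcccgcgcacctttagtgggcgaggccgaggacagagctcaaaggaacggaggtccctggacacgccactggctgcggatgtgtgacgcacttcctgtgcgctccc
Ndufaf1: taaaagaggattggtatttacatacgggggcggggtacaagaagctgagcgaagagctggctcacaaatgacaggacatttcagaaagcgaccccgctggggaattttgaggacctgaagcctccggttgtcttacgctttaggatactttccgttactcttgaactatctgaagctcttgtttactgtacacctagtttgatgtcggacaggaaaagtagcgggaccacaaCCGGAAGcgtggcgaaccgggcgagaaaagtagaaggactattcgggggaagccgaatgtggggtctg
Ndufaf4: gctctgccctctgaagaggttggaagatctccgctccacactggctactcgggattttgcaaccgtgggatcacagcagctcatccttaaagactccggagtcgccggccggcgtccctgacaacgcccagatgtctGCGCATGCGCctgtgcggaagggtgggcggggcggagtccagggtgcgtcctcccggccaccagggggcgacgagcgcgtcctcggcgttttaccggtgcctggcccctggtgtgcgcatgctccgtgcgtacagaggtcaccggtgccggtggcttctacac
Ndufv3: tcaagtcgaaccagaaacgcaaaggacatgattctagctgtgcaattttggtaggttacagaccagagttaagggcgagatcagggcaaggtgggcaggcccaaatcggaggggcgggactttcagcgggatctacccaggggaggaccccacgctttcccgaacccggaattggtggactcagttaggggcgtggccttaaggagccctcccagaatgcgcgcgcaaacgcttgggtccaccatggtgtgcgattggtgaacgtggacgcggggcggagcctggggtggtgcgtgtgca

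The 44 genes were expressed at high levels in the line. Their mean RPKM had a median of 37.0, against 9.09 over all genes tested, and ran from 3.47 for Ndufaf6 to 63.4 for Ndufv1. The 7 core subunits lay between 24.4 and 63.4, the accessory subunits and Ndufab1 between 6.27 and 56.5, and the 7 Nduf assembly factors between 3.47 and 17.9. The genes were short, with a median length of 843.5 bases against 3148 over all genes tested. RPKM divides by the length of the authors' gene model, and this length was far from GENCODE's longest coding transcript for some genes. Ndufa11, the lowest subunit at 6.27 RPKM, was divided by 3395 bases where that transcript has 918. Ndufaf6 was divided by 2830 bases where it has 1082, and Ndufaf5 by 3108 where it has 1166. The order of the genes and groups by RPKM holds for these lengths only.

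Library totals recovered from the steps between RPKM values ran from 10376530 reads (OHT replicate 1) to 14550158 (untreated replicate 2), of which 4199266 to 5762340 fell on genes. The total moved with the OHT condition: OHT replicates 1 and 3 held 0.776 and 0.805 times the reads of untreated replicate 1, OHT replicate 2 held 1.04 times and the OHT_IACS libraries 0.882 to 0.891 times. Reads of densely covered genes grew less than in proportion to the total. Within conditions, the median slope of log2 reads on log2 total was 1.22 over all genes tested and 0.706 over the complex I genes, which averaged a median of 0.462 reads per base against 0.114 over all genes tested. A slope under 1 gives a higher RPKM in a smaller library. The values for each comparison are therefore set beside a second fit that holds the log2 library total as a covariate. Within conditions the totals differed most in OHT (10376530, 13956222 and 10770476 reads) and least in OHT_IACS (11792608 to 11913079). The slopes and that fit thus rest largely on OHT replicate 2 against replicates 1 and 3. Library size and other differences of that replicate cannot be told apart.

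**Figure D1:**
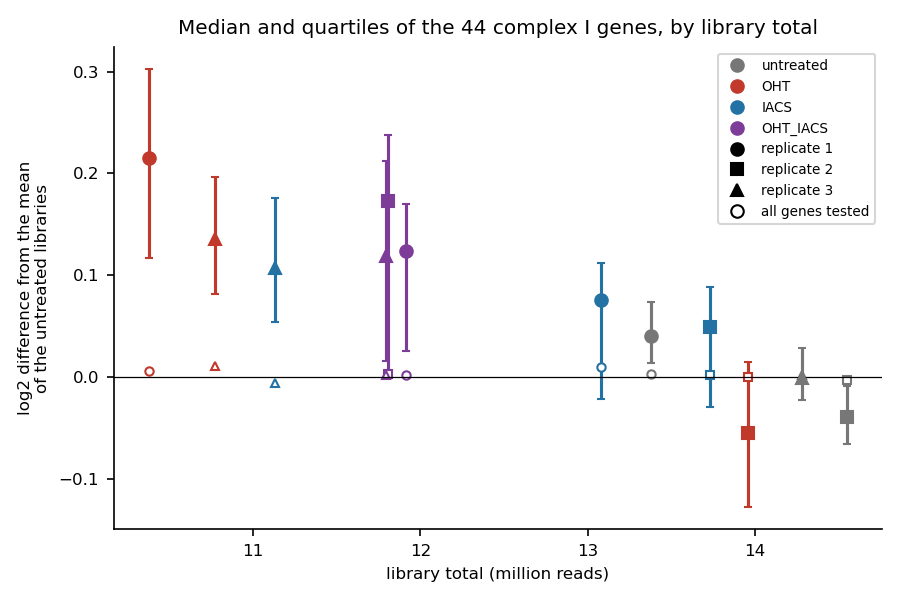
Median over the 44 complex I genes (filled symbols, with quartiles as bars) of the log2 difference from the mean of the untreated libraries, against the library total; open symbols give the same median over all 9745 genes tested. Within OHT, replicates 1 and 3, the smallest libraries, stand at 0.21 and 0.14 and the larger replicate 2 at -0.05, the lowest of all, while OHT_IACS replicate 2 stands at 0.17.

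Per library, the median of the 44 genes lay 0.21, -0.05 and 0.14 (log2) from the mean of the untreated libraries in OHT replicates 1, 2 and 3. It lay at 0.08, 0.05 and 0.11 with IACS and at 0.12, 0.17 and 0.12 with both, and the untreated libraries themselves ran from -0.04 to 0.04. Thus the range of the 3 OHT libraries spanned the untreated ones, while the IACS and OHT_IACS libraries lay above all of them. The median of all genes tested stayed between -0.01 and 0.01 in every library.

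The comparison of OHT with untreated cells asks how these genes differed with OHT alone, which activates MycER. No library without MycER was given OHT, so effects of OHT itself and of MycER cannot be told apart here. Of the 44 genes, 10 rose and 2 fell (limma, adjusted p under 0.05, Benjamini-Hochberg over 9745 genes), where 18.2% of all genes tested rose and 18.2% fell (36.4% in either direction). A positive difference was seen in 35 of them, and the median log2 difference was 0.11, against 0.01 over all genes tested. The genes that rose were core subunits Ndufs1 and Ndufs3, accessory subunits Ndufa12, Ndufb3 and Ndufb4, the acyl carrier protein gene Ndufab1 and the assembly factors Ndufaf1, Ndufaf4, Ndufaf6 and Ndufaf7, and those that fell were Ndufv3 and Ndufaf3. Medians also differed with coverage over all genes tested. At 0.5 to 1 reads per base, 19 complex I genes had a median of 0.13 and all 680 tested genes of that band 0.14. At 0.3 to 0.5 these were 0.13 for 10 complex I genes and 0.08 for all 1068, at 0.2 to 0.3 they were 0.06 for 9 and 0.05 for all 1159, and at 0.1 to 0.2 they were 0.12 for 2 and -0.00 for all 2332. Ndufa11, Ndufaf5, Ndufaf6 and Ndufaf7 lay under 0.1 reads per base and differed by -0.09, -0.15, 0.62 and 0.21. The median of all 4422 tested genes of that band was -0.06. With the library total in the fit, 2 complex I genes rose (Ndufaf1 and Ndufaf6), 3 fell (Ndufv3, Ndufb10 and Ndufv1), and the median of the 44 genes became -0.04. In that fit 1195 of all genes tested rose (12.3%) and 1156 fell. Without OHT replicate 2, 27 of the 44 genes rose, with a median of 0.19, where 2255 of all 9745 genes tested rose. Leaving out OHT replicate 1 brought the median of the 44 genes to 0.04.

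**Figure D2:**
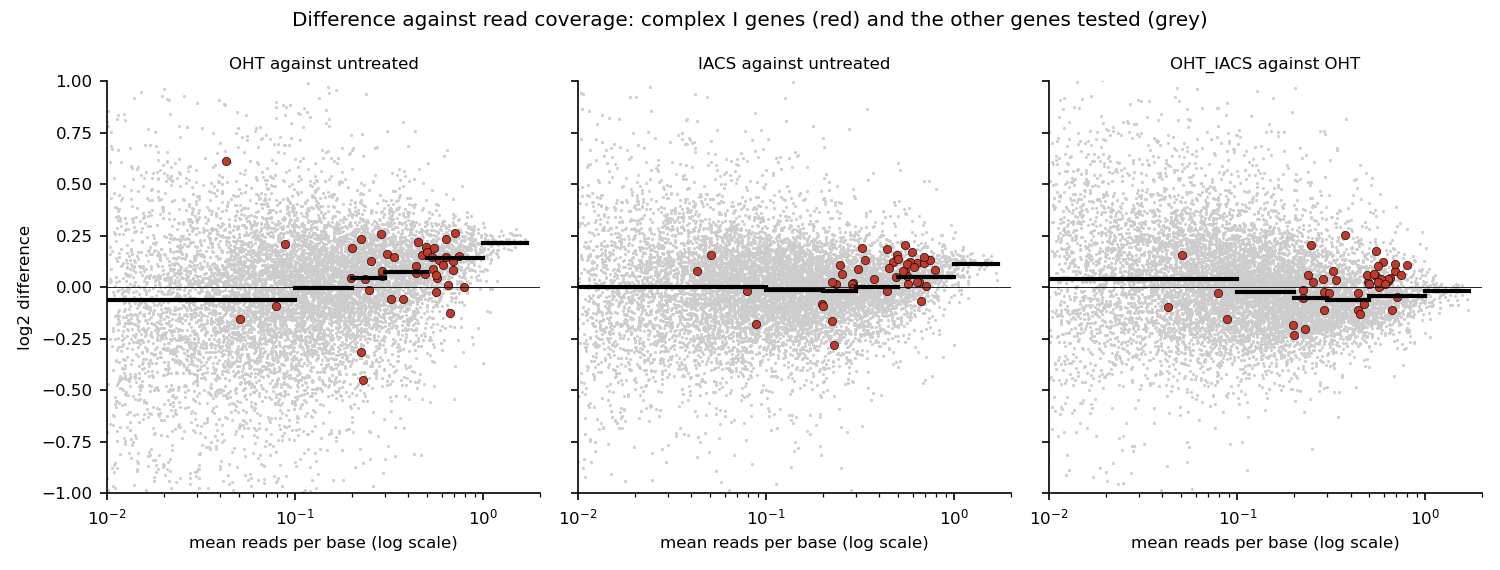
Log2 difference against mean reads per base (log scale) for the 44 complex I genes (red) and the other genes tested (grey) in 3 comparisons; black bars give the median of all genes tested in 6 coverage bands, and 117 to 213 genes per panel, none of them complex I genes, lie outside the axes. In OHT against untreated the band medians climb from -0.06 to 0.22 with coverage, and most complex I genes lie in the well-covered bands.

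Ndufv3, an accessory subunit beside the NADH-oxidizing end of the matrix arm that is made in a long and a short form, was the member with the smallest p in this comparison. It stood at 22.7, 21.4 and 23.1 RPKM in the untreated libraries, 16.4, 17.2 and 16.3 with OHT, 18.8, 18.5 and 19.0 with IACS and 13.9, 15.8 and 13.7 with both. The 4 conditions did not overlap at all: untreated was highest, then IACS, then OHT, and OHT_IACS was lowest. Ndufv3 fell by 0.45 ± 0.05 (SE, log2, n = 3 per condition) with OHT, to 0.733 times the untreated level (limma, Benjamini-Hochberg adjusted p = 2.95e-05). It fell by 0.28 ± 0.05 with IACS alone (adjusted p = 0.00338, limma), and its IACS response in primed cells differed from that in nonprimed cells by 0.08 ± 0.07, short of the threshold (95% interval -0.08 to 0.24, limma adjusted p = 0.678). Among primed cells it fell by 0.20 ± 0.05 with IACS (limma adjusted p = 0.0155), a call that was lost without OHT_IACS replicate 1 or 3 (adjusted p = 0.0586 to 0.0679). Among IACS-treated cells it fell by 0.37 ± 0.05 with OHT (limma adjusted p = 0.000206). With the library total in the fit the differences were -0.47, -0.29, -0.20 and -0.38 in the same order, and each call held. No other GENCODE gene was near-identical to Ndufv3 or overlapped its exons. The counts are per gene, so the long and the short form cannot be told apart here.

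**Figure D3:**
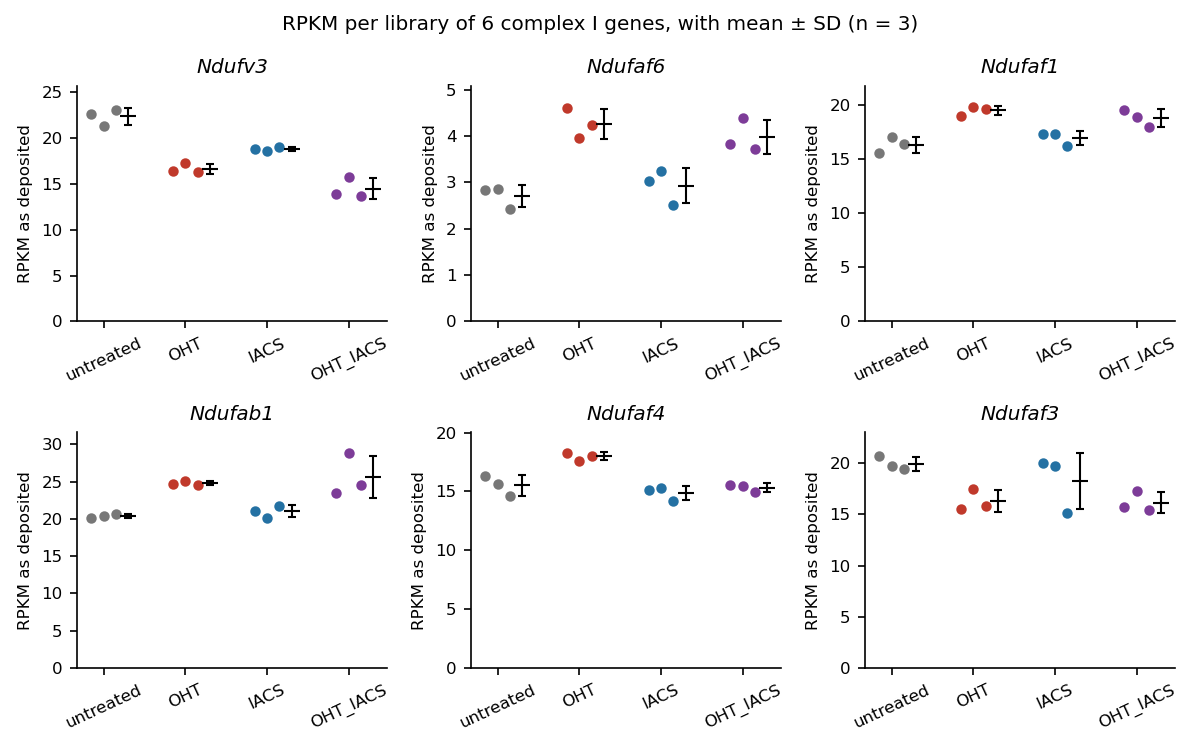
RPKM as deposited in each library (points) with the mean ± SD of 3 libraries (black bars) for Ndufv3, Ndufaf6, Ndufaf1, Ndufab1, Ndufaf4 and Ndufaf3. Ndufv3 steps down from a mean of 22.4 in untreated cells to 14.5 with both agents, whereas Ndufaf6, Ndufaf1 and Ndufab1 stand higher in both OHT conditions.

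The 7 nuclear core subunits had small differences. With OHT all 7 were positive, between 0.00 and 0.17 with a median of 0.13, and 2 passed the test. Ndufs1, which carries iron-sulfur clusters of the matrix arm and is its largest subunit, stood at 22.9, 22.2 and 22.5 RPKM in untreated cells and 25.4, 24.2 and 27.4 with OHT. Its groups did not overlap, and it rose by 0.16 ± 0.05 (limma, adjusted p = 0.0174). Ndufs3, a subunit of the ubiquinone-reducing module, stood at 37.3, 35.9 and 35.8 in untreated cells and 43.8, 40.0 and 41.1 with OHT. Its groups did not overlap either, and it rose by 0.17 ± 0.06 (limma, adjusted p = 0.0306). Both calls were lost with the library total in the fit (0.08 and 0.09, limma adjusted p = 0.21 and 0.246) and with only the compared groups in it (0.0573 and 0.0827). The Ndufs1 call was also lost without untreated replicate 2 or 3 or OHT replicate 1 or 3 (limma adjusted p = 0.0509 to 0.0871), and the Ndufs3 call without untreated replicate 2 or 3 or OHT replicate 1 (0.0858 to 0.108).

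The other 5 core genes did not pass the test with OHT. Ndufv2, an iron-sulfur subunit of the NADH-oxidizing module, differed by 0.15 ± 0.09. Ndufs8 and Ndufs7, which hold the clusters nearest ubiquinone, differed by 0.11 ± 0.07 and 0.06 ± 0.07. Ndufv1, which binds the flavin and has an E-box in its promoter, stood at 61.4, 59.4 and 60.5 RPKM in untreated cells and 64.4, 55.6 and 64.8 with OHT. Its values overlapped, and the difference was 0.00 ± 0.07. In the fit with the library total Ndufv1 fell by 0.15 ± 0.04 (limma, adjusted p = 0.0138). With IACS alone all 7 core genes again had a positive difference, between 0.09 and 0.14, and none passed the test. In primed cells the IACS differences of the core genes ran from -0.03 to 0.11, also with none past the test.

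Among the 9 accessory subunits of the matrix arm, Ndufa12 was the only one to rise with OHT and Ndufv3 the only one to fall. Ndufa12, which takes the place of the assembly factor Ndufaf2 when the arm is completed, stood at 46.2, 43.2 and 45.4 RPKM in untreated cells and 57.0, 49.0 and 55.8 with OHT. The groups did not overlap, and Ndufa12 rose by 0.24 ± 0.07 (limma, adjusted p = 0.0244). The call was lost without untreated replicate 2 or 3 or OHT replicate 1 or 3 (limma adjusted p = 0.0637 to 0.0887) and with only the compared groups (0.0573), and with the library total the difference was 0.06 (adjusted p = 0.267). Excluding Ndufv3, the other 8 all had a positive difference, and those that did not pass the test, such as Ndufa9, which binds NADPH and lies near the ubiquinone site, reached at most 0.19.

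None of the 9 accessory subunits of the proximal membrane arm passed the test with OHT, and their differences ran from -0.09 to 0.16. In the distal membrane arm, 2 of 10 rose. Ndufb3 stood at 32.5, 32.6 and 34.4 RPKM in untreated cells and 41.1, 38.0 and 38.4 with OHT. The groups did not overlap, and it rose by 0.22 ± 0.06 (limma, adjusted p = 0.0132). Ndufb4 stood at 53.8, 48.7 and 50.4 in untreated cells and 69.2, 53.2 and 65.4 with OHT. OHT replicate 2 lay within the untreated range for Ndufb4, and it rose by 0.27 ± 0.09 (limma, adjusted p = 0.0348), a call that was lost without untreated replicate 2 or 3 or OHT replicate 1 or 3 (0.0985 to 0.134), without the filter on low values (0.0632) and with only the compared groups (0.0979). The differences with the library total were 0.14 and 0.06, past the test for neither (limma adjusted p = 0.127 and 0.52). Ndufb10 stood at 56.9, 53.1 and 58.2 in untreated cells and 56.3, 46.7 and 54.2 with OHT, a difference of -0.12 ± 0.08 that passed the test only with the library total in the fit (-0.28 ± 0.05, limma adjusted p = 0.00194).

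Ndufab1 encodes the mitochondrial acyl carrier protein, which sits in both arms of complex I and also serves mitochondrial fatty acid synthesis. It stood at 20.1, 20.4 and 20.7 RPKM in untreated cells and 24.6, 25.1 and 24.6 with OHT. The groups were narrow and well apart, and Ndufab1 rose by 0.26 ± 0.06 (limma, adjusted p = 0.0064). Its difference with the library total was 0.21 (limma, adjusted p = 0.0802). In IACS-treated cells it stood at 21.1, 20.2 and 21.8 without OHT and 23.4, 28.8 and 24.6 with it, and it rose by 0.29 ± 0.06 (limma, adjusted p = 0.00485), also with the library total in the fit (0.27, limma adjusted p = 0.00819). A processed copy and a further GENCODE gene were near-identical to part of Ndufab1, so its reads could be split between them.

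The 7 Nduf assembly factors held the member with the largest rise. With OHT 4 rose and 1 fell, with a median of 0.19. Ndufaf6 acts early in the assembly of the part that meets the membrane. With the authors' gene lengths it had the lowest RPKM of all members. It stood at 2.83, 2.87 and 2.42 RPKM in untreated cells and 4.60, 3.95 and 4.23 with OHT. The groups were far apart, and Ndufaf6 rose 1.53-fold, by 0.62 ± 0.11 (limma, adjusted p = 0.000627). In IACS-treated cells it stood at 3.03, 3.24 and 2.51 without and 3.83, 4.40 and 3.72 with OHT, a rise of 0.44 ± 0.11 (limma, adjusted p = 0.0081). It was covered by 79 to 156 reads per library, and with the library total both rises held (0.59 and 0.43, limma adjusted p = 0.0104 and 0.013). IACS itself gave differences of 0.08 ± 0.11 and -0.10 ± 0.11 without and with OHT, neither past the test.

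Ndufaf1, a scaffold of the assembly of the membrane arm, stood at 15.5, 17.0 and 16.4 RPKM in untreated cells and 19.0, 19.9 and 19.6 with OHT. The groups did not overlap, and it rose by 0.23 ± 0.05 (limma, adjusted p = 0.00138). The rise was 0.26 with the library total (limma, adjusted p = 0.00698), and no left-out library ended the call. In IACS-treated cells Ndufaf1 stood at 17.3, 17.3 and 16.2 without and 19.6, 18.9 and 18.0 with OHT, a rise of 0.16 ± 0.05 (limma, adjusted p = 0.0209) that was lost without IACS replicate 1 or 3 or OHT_IACS replicate 1 (0.0513 to 0.0928), for RPKM as deposited (0.0518) and with voom on recovered reads (0.0809).

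Ndufaf3 and Ndufaf4, whose products bind each other in the assembly of the ubiquinone-reducing module, differed in direction. Ndufaf4 stood at 16.3, 15.7 and 14.6 RPKM in untreated cells, 18.3, 17.6 and 18.0 with OHT, 15.1, 15.3 and 14.2 with IACS and 15.6, 15.5 and 14.9 with both. The OHT libraries lay above all others, and Ndufaf4 rose by 0.19 ± 0.05 with OHT (limma, adjusted p = 0.0115), a call lost without untreated replicate 3 (0.0604) and with the library total (0.15, limma adjusted p = 0.122). In primed cells it fell by 0.23 ± 0.05 with IACS (limma, adjusted p = 0.0067), as it did with the library total (-0.23, limma adjusted p = 0.00762) and without any 1 library. The difference between the IACS responses of primed and nonprimed cells was -0.14 ± 0.07, with a 95% interval of -0.30 to 0.02 (limma adjusted p = 0.453). Ndufaf3 stood at 20.7, 19.7 and 19.4 in untreated cells, 15.5, 17.5 and 15.8 with OHT, 19.996, 19.728 and 15.152 with IACS and 15.7, 17.3 and 15.4 with both. The OHT libraries lay below the untreated ones, and Ndufaf3 fell by 0.31 ± 0.08 (limma, adjusted p = 0.00692), which with the library total became -0.18 (limma, adjusted p = 0.159). Ndufaf3 overlaps Impdh2 on the opposite strand, a gene with 1.10 reads per base that differed by 0.17 with OHT.

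Ndufaf7, a methyltransferase that modifies a core subunit, stood at 6.90, 6.76 and 6.76 RPKM in untreated cells, 7.21, 8.43 and 8.50 with OHT, 5.55, 6.69 and 6.16 with IACS and 7.28, 7.07 and 7.24 with both. Each group with OHT lay above its counterpart without OHT. Ndufaf7 rose by 0.21 ± 0.07 with OHT (limma, adjusted p = 0.0326), a call lost without any untreated library or OHT replicate 2 or 3 (0.0578 to 0.113) and with the library total (0.24, adjusted p = 0.0877). In IACS-treated cells it rose by 0.24 ± 0.07 (limma, adjusted p = 0.0253), lost without IACS replicate 1 or OHT_IACS replicate 1 or 3 (0.0745 to 0.12) and with only the compared groups (0.0543). Its transcript shares a stretch of at least 95% identity over at least 100 bases with 32 other genes. Ndufaf2 and Ndufaf5, the latter an enzyme that hydroxylates Ndufs7, did not pass the test in any comparison, with differences of 0.04 ± 0.11 and -0.15 ± 0.08 with OHT. Ndufaf5 stood at 3.90, 3.76 and 4.35 in untreated cells and 4.60, 4.76 and 4.31 with IACS.

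Ndufa4, which was first assigned to complex I and is now placed in cytochrome c oxidase, stood at 57.3, 50.3 and 53.7 RPKM in untreated cells and 67.0, 52.0 and 64.0 with OHT. The groups overlapped, and its differences were 0.15 ± 0.10 with OHT and 0.13 ± 0.10 with IACS, past the test for neither.

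**Figure D4:**
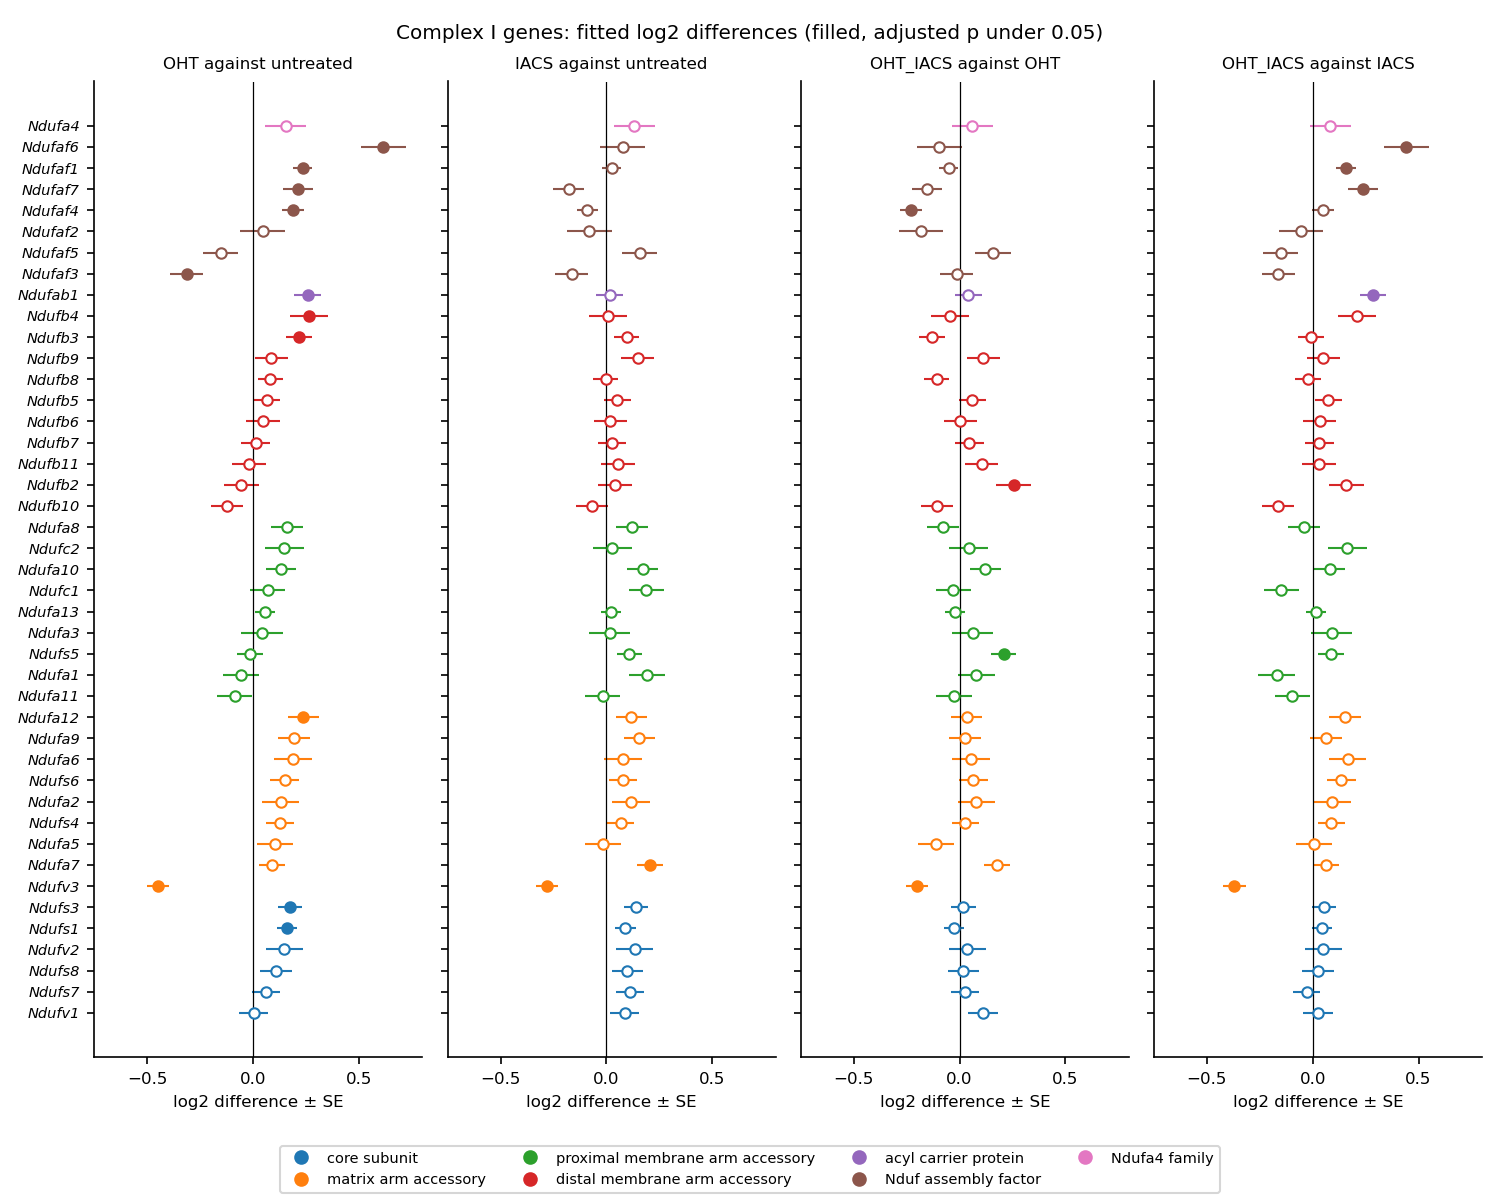
Fitted log2 difference with its standard error for 43 of the 44 genes, by role, in the 4 pairwise comparisons; filled symbols passed the test (limma, adjusted p under 0.05). Ndufv3 is filled and below 0 in all 4 panels, Ndufaf6, Ndufaf1, Ndufaf7 and Ndufab1 are filled and above 0 in both comparisons of OHT, and most subunits lie within 0.2 of 0.

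The comparison of IACS with untreated cells asks how the genes of the inhibitor's own target responded in nonprimed cells. One complex I gene rose and 1 fell (limma, adjusted p under 0.05), where 8.15% of all genes tested rose and 7.74% fell, and the median difference was 0.08 against 0.00. The differences ran from -0.28 to 0.21, and the 95% intervals of the 44 genes reached from -0.39 to 0.38. A positive difference was seen in 35 genes, and in 14 all 3 IACS libraries lay above all 3 untreated ones, where this was so in 19.9% of all genes tested. In the band of 0.5 to 1 reads per base the median was 0.10 for 19 complex I genes and 0.05 for all 680, at 0.3 to 0.5 it was 0.11 for 10 and 0.00 for all 1068, at 0.2 to 0.3 it was 0.02 for 9 and -0.02 for all 1159, and at 0.1 to 0.2 it was -0.08 for 2 and -0.01 for all 2332. Under 0.1, Ndufa11, Ndufaf5, Ndufaf6 and Ndufaf7 differed by -0.02, 0.16, 0.08 and -0.18, and the median of all 4422 was 0.00. With the library total the median of the 44 genes was 0.00, with 1 gene up and 2 down. In that fit 864 of all genes tested rose (8.87%) and 728 fell.

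The gene that rose with IACS was Ndufa7, a matrix arm subunit with an E-box in its promoter. It stood at 38.9, 37.5 and 40.1 RPKM in untreated cells, 42.6, 38.7 and 44.9 with OHT, 46.0, 45.3 and 45.7 with IACS and 45.5, 48.3 and 48.6 with both. Both IACS groups lay above both groups without the inhibitor. Ndufa7 rose by 0.21 ± 0.06 (limma, adjusted p = 0.0359), a call lost in each fit that left out an untreated or an IACS library (0.0597 to 0.126), when IACS replicates 1 and 2 were averaged (0.0699), without the filter on low values (0.0568) and with voom (0.0602), but held with the library total (0.14, limma adjusted p = 0.028). In primed cells it differed by 0.18 ± 0.06 (limma, adjusted p = 0.0514), and with the library total it rose (0.19, limma adjusted p = 0.00199). With OHT, Ndufa7 differed by 0.09 ± 0.06. Ndufaf7 was the assembly factor with the smallest p for IACS (-0.18 ± 0.07, limma adjusted p = 0.107), followed by Ndufs3 (0.14 ± 0.06, adjusted p = 0.118) and Ndufa10 (0.17 ± 0.07, adjusted p = 0.129) among all members.

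In OHT-primed cells IACS raised 2 complex I genes and lowered 2 (limma, adjusted p under 0.05), where 11.9% of all genes tested rose and 11.8% fell. The median was 0.03, against -0.01 over all genes tested. Besides Ndufaf4 and Ndufv3, which fell, the genes that rose were Ndufb2 of the distal membrane arm and Ndufs5, which faces the intermembrane space. Ndufb2 stood at 31.3, 27.7 and 24.7 RPKM with OHT and 32.3, 34.3 and 33.0 with both, and rose by 0.26 ± 0.08 (limma, adjusted p = 0.0393). The call was lost without untreated replicate 3, OHT replicate 2 or 3 or any OHT_IACS library (0.0519 to 0.161), without the filter (0.0736), with voom (0.056) and with only the compared groups (0.0859), and GENCODE places another gene over Ndufb2 on the same strand. Ndufs5 stood at 18.6, 18.7 and 18.1 with OHT and 19.6, 23.3 and 21.2 with both, and rose by 0.21 ± 0.06 (limma, adjusted p = 0.025), lost without OHT replicate 3 or OHT_IACS replicate 2 or 3 (0.0695 to 0.102), with voom (0.144) and with only the compared groups (0.0528). The groups did not overlap for either gene. In the fit with the library total 6 genes rose and 3 fell: Ndufa7, Ndufa10, Ndufb9 and Ndufv1 were added to the genes that rose, and Ndufb8 to those that fell. In that fit 1321 of all genes tested rose (13.6%) and 1457 fell. This comparison shares the OHT libraries with that of OHT against untreated.

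In IACS-treated cells OHT raised 4 complex I genes and lowered 1 (limma, adjusted p under 0.05), where 12.3% of all genes tested rose and 14.3% fell. These were Ndufab1, Ndufaf1, Ndufaf6, Ndufaf7 and, lower, Ndufv3, with the values given above. This comparison shares no library with that of OHT against untreated cells, but both use the spread estimated from all 12 libraries in one fit. All 5 of its calls, and 5 of the 12 of the latter, were made in both and in the same direction, and 35 of 44 genes had the same sign. These shared counts are not given for all genes tested, of which 36.4% were called in OHT against untreated and 26.5% here. Whether the complex I genes differ in this from other genes was not tested. Each of the 5 calls held with the library total. In that fit 6 of the 44 genes rose and 3 fell, where 1370 of all genes tested rose (14.1%) and 1460 fell. The library totals here ran from 11133789 to 13729131 with IACS and from 11792608 to 11913079 with both.

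**Figure D5:**
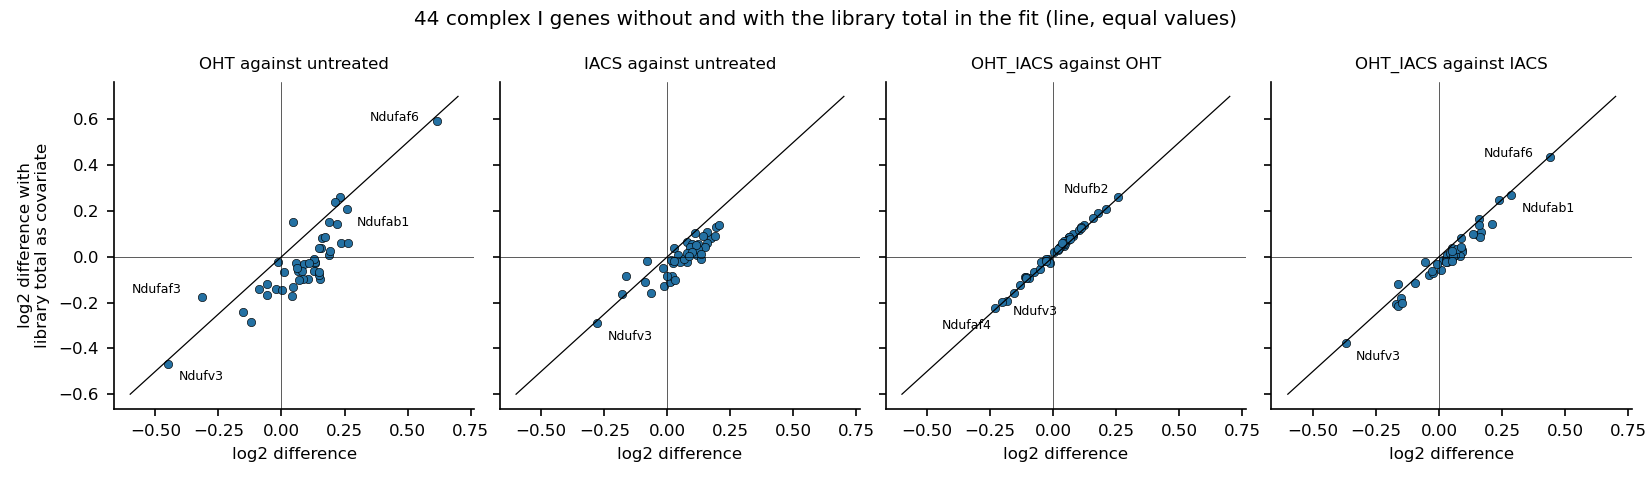
Log2 difference of the 44 genes without (x axis) and with (y axis) the log2 library total in the fit, in the 4 pairwise comparisons; the line marks equal values. In OHT against untreated the cloud lies below the line, with a median of 0.11 without and -0.04 with the covariate, while Ndufv3 and Ndufaf6 stay near the line.

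No complex I gene differed in its IACS response between primed and nonprimed cells at an adjusted p under 0.05 (limma), where 14 of all genes tested did (0.144%). At an unadjusted p under 0.05 there was 1, Ndufb3 (-0.23 ± 0.09, limma adjusted p = 0.307), among 12.7% of all genes tested. Limma voom on recovered reads also called none, where it called 24 of all genes tested higher and 1 lower. The next 4 by p were Ndufaf4 (-0.14 ± 0.07), Ndufa8 (-0.20 ± 0.11), Ndufc1 (-0.22 ± 0.12) and Ndufb2 (0.21 ± 0.12). The 95% intervals of the 44 differences reached from -0.50 to 0.46.

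Assembly factors that are not named Nduf were represented by 11 tested genes of 14 names on the list. With OHT 3 rose and 1 fell (limma, adjusted p under 0.05): Ecsit (0.33 ± 0.05, adjusted p = 0.000191) and Acad9 (0.24 ± 0.05, adjusted p = 0.00112), which work with Ndufaf1, and Atp5sl (0.40 ± 0.08, adjusted p = 0.00179), now Dmac2, rose, while Tmem186 fell by 0.23 ± 0.07 (adjusted p = 0.0217). Their median was 0.07. With IACS alone none passed the test, with a median of -0.11. In primed cells IACS lowered 3, with a median of -0.15: Foxred1 (-0.23 ± 0.05), Ecsit (-0.17 ± 0.05) and Timmdc1 (-0.17 ± 0.06), with limma adjusted p = 0.00514, 0.026 and 0.0376. In IACS-treated cells OHT raised 3 and lowered 1. Over all genes tested, 18.2% rose and 18.2% fell with OHT, and 8.15% and 7.74% with IACS alone. These shares were 11.9% and 11.8% with IACS in primed cells, and 12.3% and 14.3% with OHT in IACS-treated cells. Ndufaf8, which the files list under the older name 1810043H04Rik and the Nduf rule therefore did not take, fell by 0.33 ± 0.08 with OHT (limma, adjusted p = 0.00781). Dmac1, listed under the older name Tmem261 and so not among the 11, fell by 0.20 ± 0.07 with IACS in primed cells (limma, adjusted p = 0.0433).

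For the other complexes of the respiratory chain, 13 complex III genes had a median of 0.16 with OHT (3 rose, 1 fell), 23 complex IV genes a median of 0.15 (6 rose, 1 fell) and 16 ATP synthase genes a median of 0.16 (none rose, 1 fell). With IACS their medians were 0.07, 0.08 and 0.09, near the 0.08 of complex I. The 76 genes of the mitochondrial ribosome had a median of 0.15 with OHT, with 33 called higher and none lower, and of -0.11 with IACS in primed cells, with 1 higher and 14 lower. Over all genes tested, 18.2% rose and 18.2% fell with OHT, and 11.9% and 11.8% with IACS in primed cells. All tested genes at 0.5 to 1 reads per base had a median of 0.14 with OHT, and those over 1 had 0.22. No values with the library total in the fit are given for these lists. They are described by counts and medians, and differences between them and complex I were not tested.

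Of the 44 genes, 13 have another GENCODE gene at least 95% identical over at least 100 bases, among them Ndufab1, Ndufa12, Ndufb3, Ndufb4, Ndufs3, Ndufs5 and Ndufaf7. Exons of 3 overlap another gene on the same strand and those of 16 on the opposite strand, Ndufs1 and Ndufaf3 included. The libraries were stranded, but the strand setting of the counting is not given in the sources used here, so for these genes reads of the partner could be included. Ndufv3, Ndufaf1, Ndufaf4 and Ndufaf6 had neither.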

How the data were processed

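Stranded, rRNA-depleted total RNA libraries of FLMycER cells were sequenced with 3 biological replicates per condition. The submitters' processing notes name TopHat2 2.0.8, featureCounts 1.4.5-p1, SAMtools and DESeq2 with build mm9. The authors deposited RPKM per gene and library, together with their own log2 fold changes and p-values, deposited columns that were not used here. Reads, gene lengths and library totals were recovered from the exact steps between RPKM values (all 15451 genes above 0, to within 0.001 reads). The 9745 genes that reached an RPKM of 1 or more in 3 or more of the 12 libraries entered limma 3.58.1 (R 4.3.3) on log2(RPKM + 0.1) after median-ratio scaling, with a mean-variance trend, all 12 libraries in one fit, 4 pairwise comparisons and their interaction, two-sided, and Benjamini-Hochberg adjustment and a threshold of 0.05. Fold changes are on the log2(RPKM + 0.1) scale, which understates those of low genes. The fit and the recovery were tested on simulated data. For the fit, simulated reads were proportional to the library total, and the planted changes were larger than most of those called here. That simulation therefore does not cover slopes under 1 or the smaller changes. The genes, role groups and other lists were chosen with earlier results of these data known. Named are the core subunits, except 1 gene that is not reported here, the Nduf assembly factors, Ndufa4 and its paralog, and the 5 members with the smallest p in each comparison, and other members, chosen after their values were seen, because they passed the test with or without the library total or illustrate a group (Ndufa9, Ndufa11). Copies and overlaps were searched with blastn 2.17.0 in GENCODE vM21 (GRCm38). Alternatives were the pseudocount, the filter, the scaling, the replicate number as a block, the library total, voom on recovered reads, only the compared groups and each library left out. Added after seeing the data was a fit with IACS replicates 1 and 2 averaged as 1 sample. Over all genes these libraries differed by about counting noise (chi-square per gene 1.02, chi-square test, upper-tail p = 0.0848). Over genes under 0.1 reads per base they differed by more than counting noise (1.09).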

Additional observations from a re-analysis of the deposited data

How the results depend on the processing

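No gene called among the 44 changed direction under any alternative, but 3 medians changed sign. That of OHT against untreated did so with the library total. The median of the interaction changed sign with the library total and without OHT replicate 1 (0.0081). The median of OHT_IACS against OHT (0.027) did so without OHT replicate 2 (-0.052). For OHT against untreated, the number that rose (10) was 2 with the library total as covariate and 6 with only the compared groups, the number that fell (2) was 4 after quantile normalization, and the median (0.11) was 0.021 after quantile normalization and -0.039 with the library total. For IACS against untreated, the number that rose (1) was 0 without the filter, with voom on recovered reads and with IACS replicates 1 and 2 averaged, 2 for RPKM as deposited and with only the compared groups, and 6 after quantile normalization; the number that fell (1) was 2 after quantile normalization and with the library total, where the median was 0.0041. For OHT_IACS against OHT, the number that rose (2) was 1 without the filter, 7 after quantile normalization, 6 with the library total and 0 with voom and with only the compared groups. For OHT_IACS against IACS, the number that rose (4) was 7 after quantile normalization, and the number that fell (1) was 2 after quantile normalization and with only the compared groups and 3 with the library total. The median of the interaction (-0.04) was 0.052 with the library total. Over all genes tested, only the compared groups gave 1447 higher and 1631 lower with OHT, and 859 and 834 with IACS. They gave 826 and 765 for OHT_IACS against OHT and 1190 and 1296 for OHT_IACS against IACS. Voom gave 991 and 843 with IACS and 1235 and 1143 for OHT_IACS against OHT. Without the filter these were 691 and 619 of 15451, and 1030 and 923. With IACS replicates 1 and 2 averaged, 539 rose and 600 fell with IACS.

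Leaving out 1 library gave, for OHT against untreated, 4 to 27 that rose, 2 to 4 that fell and a median of 0.038 to 0.19; for IACS against untreated, 0 to 4, 1 and 0.06 to 0.10; for OHT_IACS against OHT, 0 to 4, 1 to 6 and -0.052 to 0.084; for OHT_IACS against IACS, 2 to 5, 1 to 2 and 0.03 to 0.07; and for the interaction, 0, 0 and -0.13 to 0.0081. Over all 9745 genes tested, these fits called 1242 to 2255 higher and 1393 to 1871 lower for OHT against untreated. The ranges were 498 to 932 and 429 to 873 for IACS against untreated. They were 811 to 1445 and 710 to 1550 for OHT_IACS against OHT. For OHT_IACS against IACS they were 910 to 1338 and 941 to 1503, and for the interaction 3 to 97 and 0 to 52. Among the complex I values, OHT replicates 1 and 2 set most of the extremes. With 1 library left out, the pooled spread stood for that group.

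Same-numbered libraries correlated at -0.17 to 0.10 in their deviations from the group means, 1 of 18 pairs over 0.1, so the numbers were not taken to pair the samples. With the replicate block, 11 genes rose and 2 fell with OHT, 1 and 1 with IACS, 3 and 2 for OHT_IACS against OHT, 4 and 1 for OHT_IACS against IACS and 0 in the interaction. The block changed no call count by over 1.5 times. Over all genes tested it gave 1831 higher and 1762 lower with OHT, and 752 and 734 with IACS. It gave 1142 and 1114 for OHT_IACS against OHT, 1182 and 1350 for OHT_IACS against IACS, and 7 and 0 in the interaction. In the split of all genes tested, RPKM as deposited gave 867 higher and 469 lower with IACS, against 794 and 754, and with the library total 2351 of all genes tested were called with OHT, against 3546. After quantile normalization 1958 of all genes tested rose and 1791 fell with OHT, and 1095 and 966 with IACS. These numbers were 1220 and 1237 for OHT_IACS against OHT, and 1489 and 1534 for OHT_IACS against IACS. Depth limits Ndufaf6 and Ndufs5 most, at 79 to 156 and 98 to 143 reads per library.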
